A study of Danio rerio with 2 samples.

Results

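The barcodes described here held RNA of at least 2 of 7 interferon-stimulated genes, and they numbered 1537 of the 8629 pituitary barcodes that passed the filter. A barcode stands for a droplet and, where the capture worked, for 1 cell. Barcodes were selected on measured values. A barcode needed at least 200 detected genes, at most 20% mitochondrial UMIs (unique molecular identifiers, each counted as 1 captured RNA molecule), and at least 1 UMI in each of 2 or more of *rsad2*, *isg15*, *lgals17*, *ifi27.1*, *ifi27.2*, *ifi27.3* and *ifi27.4*, called the rule genes below. In WT 1057 of 5070 barcodes passed (20.8%, interval 19.7 to 21.99%), and in CCK1/2-KO 480 of 3559 (13.5%, 12.4 to 14.7%). All intervals are exact, at the 95% level, and cover counting error only.

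The tissue was the pituitary of male zebrafish aged 6 months. WT fish were compared with *cck1*-/-;*cck2*-/- fish (labelled CCK1/2-KO), in which both cholecystokinin genes had been mutated by CRISPR/Cas9, and no fish of either group was infected or treated as far as the labels say. Pituitaries of 30 fish per group were pooled, dissociated and loaded as 1 droplet library per genotype, so genotype and library cannot be told apart and no test between them was possible. The WT library held 22358017 UMIs in 5236 barcodes and the CCK1/2-KO library 15910570 in 3755, at medians of 864 and 941 UMIs per barcode. For the deleted genes, a symbol match found *ccka* alone (ENSDARG00000070810), with 144 UMIs in WT, 122 of them in a single barcode, and 14 in CCK1/2-KO. These counts check the genotype labels poorly. The libraries shared 11 barcode sequences, of which 2 were WT members, 1 was a CCK1/2-KO member and 0 were members in both.

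Type I interferons are secreted proteins that cells release after sensing viral nucleic acid. In fish the type I ligands are called ifnphi and bind paired crfb receptors. Bound receptors activate the kinases JAK1 and TYK2, which phosphorylate STAT proteins, STAT2 among them. With IRF9 these enter the nucleus and switch on interferon-stimulated genes, the proteins of which block viral replication, present antigen and damp the signal again. Of the rule genes, *rsad2* encodes viperin, an enzyme that makes a nucleotide which ends viral RNA chains, and *isg15* a ubiquitin-like protein that is attached to other proteins. *lgals17* is named as a galectin, a lectin that binds galactosides. The *ifi27* genes encode small membrane proteins and lie in tandem as near copies of each other. In the RefSeq assembly GRCz12tu the order is *ifi27.1*, *ifi27.3*, *ifi27.2* and *ifi27.4*, and the counting could have split or lost reads among them, so that their separate levels are uncertain.

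Most of the barcodes that passed the rule held a weak signal. The median was 5 rule-gene UMIs in both libraries, with quartiles of 3 and 10 in WT and of 3 and 9 in CCK1/2-KO. Exactly 2 rule genes were present in 597 WT members (56.5%) and 304 CCK1/2-KO members (63.3%), and 254 (24.0%) and 106 (22.1%) passed with a single UMI of each of 2 genes. The *ifi27* genes alone carried 481 WT members (45.5%) and 270 CCK1/2-KO members (56.25%), while 576 and 210 held at least 1 of *rsad2*, *isg15* and *lgals17*. The latter 3 genes were present together in 38 and 10. Just outside the rule lay 1400 WT and 826 CCK1/2-KO barcodes with 1 rule gene, of which 1033 and 590 held a single UMI of it. At the other end, 5 to 7 rule genes were present in 104 WT barcodes (2.05% of those past the filter, 1.68 to 2.48%) and 31 CCK1/2-KO barcodes (0.871%, 0.593 to 1.23%). The name of a strong interferon response therefore fits a small part of the members by these counts, and they are called here by the rule.

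Levels of the rule genes in the members are a description, since these genes chose the members. *rsad2* had 467 UMIs in 200 WT members and 292 in 63 CCK1/2-KO members, or 55.8 and 60.2 CPM (UMIs per 1000000 UMIs of the members). *isg15* was at 145 CPM in WT (137 to 153) and 101 in CCK1/2-KO (92.4 to 111), and *lgals17* at 32.0 (28.3 to 36.12) and 44.7 (39.0 to 51.1). Among the *ifi27* genes, *ifi27.2* was at 497 and 337 CPM, *ifi27.4* at 303 and 212, *ifi27.1* at 194 and 193 and *ifi27.3* at 42.3 and 33.2. The most common pair was *ifi27.2* with *ifi27.4*, found together in 476 WT and 209 CCK1/2-KO members. Over all barcodes past the filter the 7 genes summed to 578 CPM in WT and 387 in CCK1/2-KO, a log2 ratio of CCK1/2-KO to WT of −0.58 (−0.62 to −0.53).

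A single CCK1/2-KO barcode weighed on these levels. It held 559 rule-gene UMIs among its 76519, 11.74% of all those in CCK1/2-KO members, and 110 of the 292 *rsad2* UMIs. Without it, the log2 ratio of CCK1/2-KO to WT within members went from 0.11 to −0.55 for *rsad2*, from −0.52 to −0.84 for *isg15*, from 0.48 to 0.23 for *lgals17* and from −0.01 to −0.23 for *ifi27.1*. The direction of *rsad2* thus turned on 1 barcode. For the 7 genes summed over all barcodes past the filter the ratio went from −0.58 to −0.71.

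The share of members rose with depth in both libraries, while the level of the rule genes was lower in deep barcodes. From 500 to 700 UMIs per barcode, 11.69% of WT and 5.02% of CCK1/2-KO barcodes passed the rule, and over 10000 UMIs 40.8% and 33.4% did. Between the same bins the summed level of the 7 genes went from 1700 to 337 CPM in WT and from 782 to 315 CPM in CCK1/2-KO. Members accordingly had medians of 4581 and 5866.5 UMIs, against 798 and 905 in the other barcodes, and still 355 WT members (33.6%) and 119 CCK1/2-KO members (24.8%) held fewer than 1000 UMIs. When every barcode was thinned to 500 UMIs, the expected share of members was 7.46% in WT and 3.47% in CCK1/2-KO. At 1000 UMIs, with 2762 and 1802 shallower barcodes left out, it was 8.54% and 5.32%, against 30.4% and 20.5% in the same barcodes without thinning. The WT share was the higher in every depth bin and at both thinned depths.

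**Figure D1:**
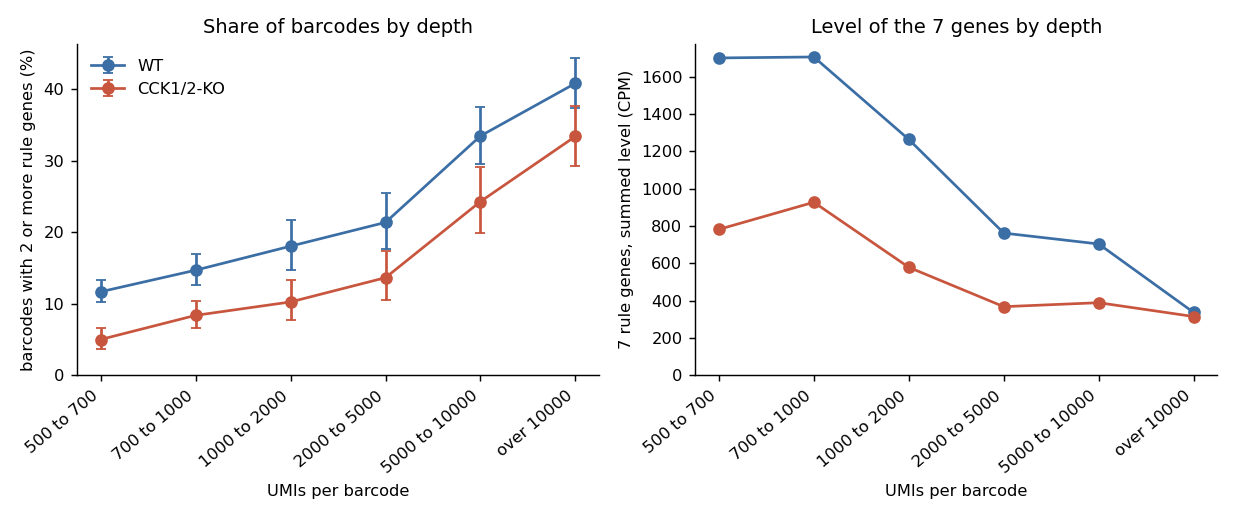
Share of barcodes with 2 or more rule genes (left, %, bars are exact 95% intervals) and summed level of the 7 rule genes over all barcodes (right, CPM) by UMIs per barcode, in WT (blue) and CCK1/2-KO (red). The share rises from 11.69% to 40.8% in WT and from 5.02% to 33.4% in CCK1/2-KO, whereas the level is lower over 10000 UMIs (337 and 315 CPM) than under 700 (1700 and 782 CPM).

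The high level in shallow barcodes was a matter of the rule genes more than of other interferon-stimulated genes. In WT barcodes under 1000 UMIs, *rsad2*, *isg15* and *lgals17* summed to 415 CPM (386 to 445), against 83.6 (79.6 to 87.6) in deeper barcodes, and in CCK1/2-KO to 195 and 64.6. For the 4 *ifi27* genes the values were 1288 and 391 CPM in WT and 667 and 281 in CCK1/2-KO. A list of 74 other interferon-induced effectors was at 1146 and 869 CPM in WT and at 952 and 819 in CCK1/2-KO. Red blood cell markers were also higher in shallow barcodes, at 232836 against 179891 CPM in WT and 173408 against 103722 in CCK1/2-KO, whereas hormone genes were lower, at 30748 against 76260 and 19755 against 42893. The part of these cells or of free RNA in the level of the rule genes was not tested.

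To find which cells the members were, all barcodes of both libraries were clustered. The rule genes, hormone and mitochondrial genes, and the interferon and antigen genes of the lists used here were left out. Interferon-stimulated genes outside the lists were not left out, and *ifi27.6* was among the leading genes of 2 unnamed clusters. Of 28 clusters, 15 could be named from marker genes, with the ending "-like". Members lay in 27 clusters in WT and 26 in CCK1/2-KO. Barcodes of the 3 red blood cell-like clusters formed 26.1% of WT members and 29.2% of CCK1/2-KO members, and unnamed clusters 45.0% and 36.5%. Of the unnamed clusters, those led by *mibp* and *gp9* and by *znfl2a* and *gp9* also held red blood cell markers, and with them the red blood cell-like share was 51.4% and 40.4%. These clusters were large, with 2867 of 5070 WT barcodes and 1853 of 3559 CCK1/2-KO barcodes. Of their barcodes 18.9% and 10.5% were members, below the 20.8% and 13.5% over all barcodes. In the 3 red blood cell-like clusters alone 23.4% and 9.83% were. Hormone cell-like clusters gave 5.58% and 2.29% of the members, and 12.5% and 10.2% with the unnamed *gh1*-rich and *pomca*-rich clusters.

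Among clusters of at least 50 barcodes in each library, the highest shares of members were found outside the hormone cell-like clusters. In an unnamed cluster led by *stra6*, the receptor through which cells take up retinol, 55 of 128 WT barcodes (43.0%, 34.3 to 52.0%) and 29 of 61 CCK1/2-KO barcodes (47.5%, 34.6 to 60.7%) were members. Pituicyte and glia-like barcodes, led by *rx3*, followed with 60 of 143 (42.0%) and 36 of 97 (37.1%). These are the resident glia of the posterior lobe. Endothelial-like barcodes, with *cdh5* (VE-cadherin) among the leading genes, had 51 of 135 (37.8%, 29.6 to 46.5%) and 43 of 139 (30.9%, 23.4 to 39.3%). The intervals of these clusters overlapped with each other in each library. Members in the *stra6* cluster had medians of 17072 and 22700 UMIs against 751 and 881.5 in its other barcodes, so that mostly its deep barcodes passed. Pituicyte and glia-like members likewise had 8488 and 10929 against 770 and 945, and endothelial-like members 6313 and 10682 against 3702 and 2845.5. Over both libraries the *stra6* cluster had *gh1* at 13887 and *prl* at 10411 CPM, against 2643 and 124 in endothelial-like barcodes. A small unnamed cluster led by *myf5* and *myod1*, regulators of muscle cells, had 11 of 22 in WT (28.2 to 71.8%) and 7 of 34 in CCK1/2-KO (20.6%, 8.70 to 37.9%).

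For the leukocyte clusters and the mesenchymal one, the intervals of the shares of members overlapped with each other in each library. Macrophage and microglia-like barcodes had 34 of 139 in WT (24.5%, 17.6 to 32.5%) and 10 of 92 in CCK1/2-KO (10.9%, 5.34 to 19.1%). For T and NK cell-like barcodes the values were 28 of 126 (22.2%, 15.3 to 30.5%) and 23 of 188 (12.2%, 7.92 to 17.8%). An unnamed cluster led by immunoglobulin light chain genes had 5 of 23 and 23 of 89 (25.8%), and neutrophil-like barcodes 2 of 25 and 5 of 22 (22.7%, 7.82 to 45.4%). Mesenchymal and mural-like barcodes, with collagen genes in the lead, had 38 of 138 (27.5%) and 28 of 192 (14.6%).

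Hormone cells differed by cluster. In the 3 clusters named hormone cell-like, 59 of 476 WT barcodes (12.4%, 9.57 to 15.7%) and 11 of 255 CCK1/2-KO barcodes (4.31%, 2.17 to 7.59%) were members. With the unnamed *gh1*-rich and *pomca*-rich clusters the numbers were 132 of 799 (16.5%, 14.0 to 19.3%) and 49 of 486 (10.1%, 7.55 to 13.1%). In the cluster led by *lhb* and *fshb*, the gonadotropin subunit genes, 11 of 109 WT barcodes (10.1%) and 2 of 20 CCK1/2-KO barcodes (10.0%) were members, at medians of 9468 and 13233.5 UMIs per barcode. A shallow cluster led by *tshba* and *gh1* had 13 of 205 (6.34%, 3.42 to 10.6%) and 2 of 162 (1.23%, 0.150 to 4.39%), the lowest share among clusters of at least 20 barcodes per library. Among deep barcodes, the cluster with prolactin (*prl*) had 35 of 162 (21.6%) and 7 of 73 (9.59%). The *pomca*-rich cluster had 22 of 147 (14.97%) and 8 of 68 (11.76%). The *gh1*-rich cluster had 51 of 176 (29.0%) and 30 of 163 (18.4%), in each library above the share over all barcodes. Its barcodes were deep, with median UMIs of 14942 in WT members and 12245 in the other WT barcodes. In CCK1/2-KO these medians were 14839 and 13673. Of all barcodes over 10000 UMIs, 40.8% in WT and 33.4% in CCK1/2-KO were members, above the shares of the *gh1*-rich cluster. Shares of this cluster at matched depth were not taken. The *pomca*-rich and *gh1*-rich clusters stayed unnamed because fewer than 3 hormone cell markers counted as detected in them.

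Red blood cells, which in fish keep a nucleus, split by depth. In the deep red blood cell-like cluster, at medians of 9229 and 12456 UMIs per barcode, 171 of 522 WT barcodes (32.8%, 28.7 to 37.0%) and 33 of 114 CCK1/2-KO barcodes (28.9%, 20.8 to 38.2%) were members. In the shallow cluster led by *hbae5* and *kel*, 59 of 332 (17.8%, 13.8 to 22.3%) and 89 of 1062 (8.38%, 6.78 to 10.2%) were. Of the 21 clusters with at least 20 barcodes in each library, 18 had the higher share in WT. The exceptions were the *stra6* cluster, the immunoglobulin cluster and the neutrophil-like barcodes. Within 41 of the 42 cluster and library pairs with at least 5 members, the members were the deeper barcodes at the median.

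**Figure D2:**
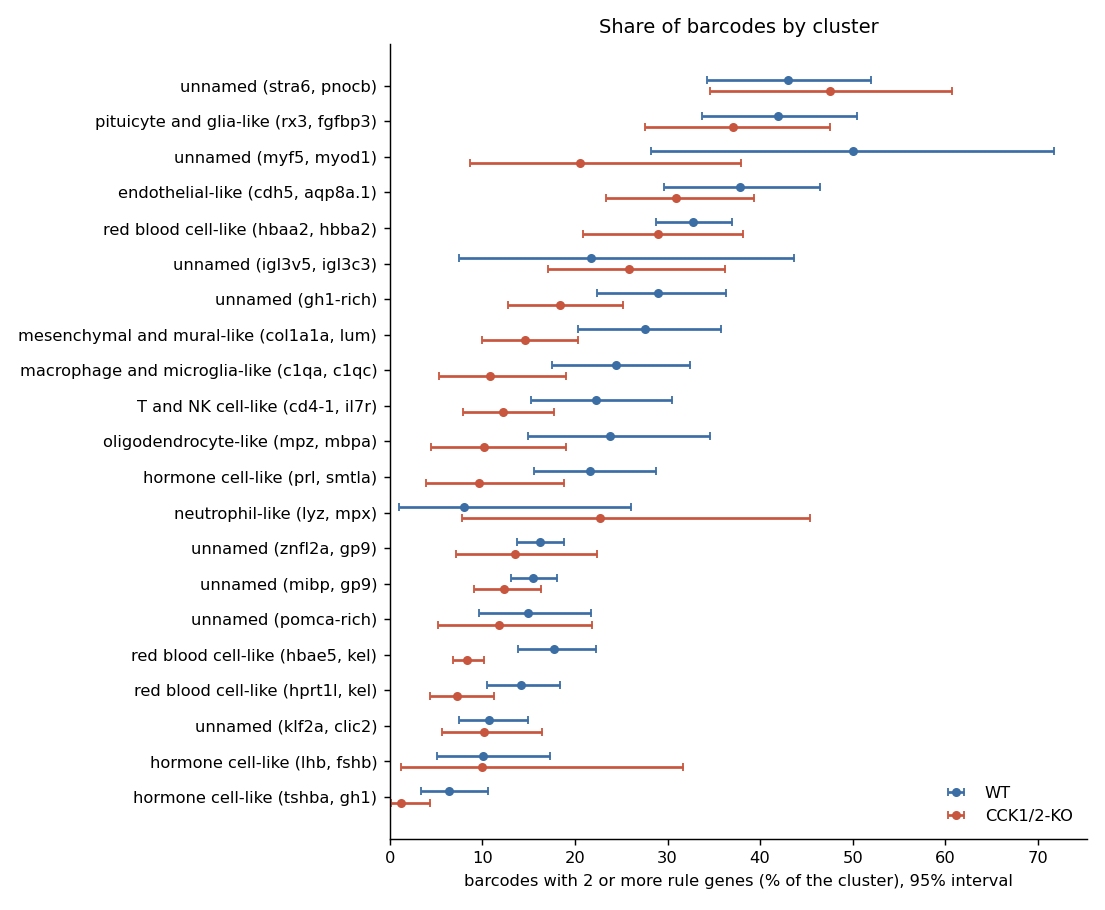
Share of barcodes with 2 or more rule genes (% of the barcodes of a cluster) in WT (blue) and CCK1/2-KO (red), for the 21 clusters with at least 20 barcodes in each library. Bars are exact 95% intervals, and 2 leading genes or the richest hormone gene stand in brackets. Shares run from 43.0% and 47.5% in the cluster of *stra6* down to 6.34% and 1.23% in that of *tshba* and *gh1*.

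Marker genes were also counted barcode by barcode, with free RNA as the limit. At least 1 hormone UMI was present in 1054 WT members (99.7%) and 456 CCK1/2-KO members, and at least 1 UMI of the red blood cell markers in 100% of both. Such UMIs do not name a cell here. *gh1*, which endothelial cells should lack, was present in 97.0% of the WT endothelial-like barcodes at a median of 4810 UMIs, and in 84.9% of the CCK1/2-KO ones at 5165. Counting instead the members above the 99th percentile of the other barcodes, 0 of 1057 WT members and 3 CCK1/2-KO members (0.625%) stood out in hormone genes. By this cutoff 1.02% of the other WT barcodes and 1.01% of the other CCK1/2-KO barcodes stood out in each list named here. The cutoff for red blood cell markers in WT lay at 7337 UMIs per 10000, so these counts do not give the share of a cell type. For red blood cell markers the numbers were 17 (1.61%) and 14 (2.92%). They were 7 and 6 for pan-leukocyte markers, 24 (2.27%) and 2 for macrophage markers, 17 (1.61%) and 21 (4.375%) for endothelial markers, and 29 (2.74%) and 16 (3.33%) for pituicyte markers. Summed over members, pituicyte markers were at 2474 CPM against 852 in the other WT barcodes and at 3782 against 984 in CCK1/2-KO. Hormone genes were at 65047 against 76883 and 24434 against 48423, and pan-leukocyte markers at 670 in both groups of WT and 811 against 940 in CCK1/2-KO.

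The make-up of the rule-gene signal differed between cell types. The ratio of *ifi27.2* to *ifi27.4* UMIs was 4.49 in WT endothelial-like barcodes (3.67 to 5.53) and 5.39 in CCK1/2-KO (4.25 to 6.89). In mesenchymal and mural-like barcodes it was 8.39 (5.93 to 12.2) and 3.91 (3.05 to 5.07). Macrophage and microglia-like barcodes had 3.25 (2.64 to 4.03) and 2.11 (1.31 to 3.47). A single WT barcode held 103 of the 530 *ifi27.2* UMIs of endothelial-like barcodes. In WT mesenchymal and mural-like barcodes 1 held 137 of 302, and in macrophage and microglia-like ones 1 held 118 of 384. Ratios without these barcodes were not taken, and the intervals do not cover this. The deep red blood cell-like cluster, by contrast, had 0.885 (0.7999 to 0.979) and 0.333 (0.250 to 0.440), and the *gh1*-rich cluster 0.402 (0.284 to 0.560) and 0.225 (0.122 to 0.392). No cell type is known to lack these genes, so no share of background was set for them, and the part of free RNA in their counts was not tested.

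By level, the 7 genes were highest in shallow clusters and lowest in hormone cells. In the WT cluster led by *mibp* and *gp9* they summed to 2117 CPM, at a median of 664 UMIs per barcode, and in CCK1/2-KO to 620. Endothelial-like barcodes had 1033 and 578 CPM, oligodendrocyte-like barcodes 1429 and 360, and macrophage and microglia-like barcodes 614 and 139. The cluster of *lhb* and *fshb* had 85.9 and 75.3 CPM and the *gh1*-rich cluster 150 and 83.6. The level was higher in WT in 19 of 21 clusters, which did not include the cluster of the CCK1/2-KO barcode with 559 rule-gene UMIs. The exceptions were mesenchymal and mural-like barcodes (456 and 516 CPM) and neutrophil-like barcodes (288 and 303).

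**Figure D3:**
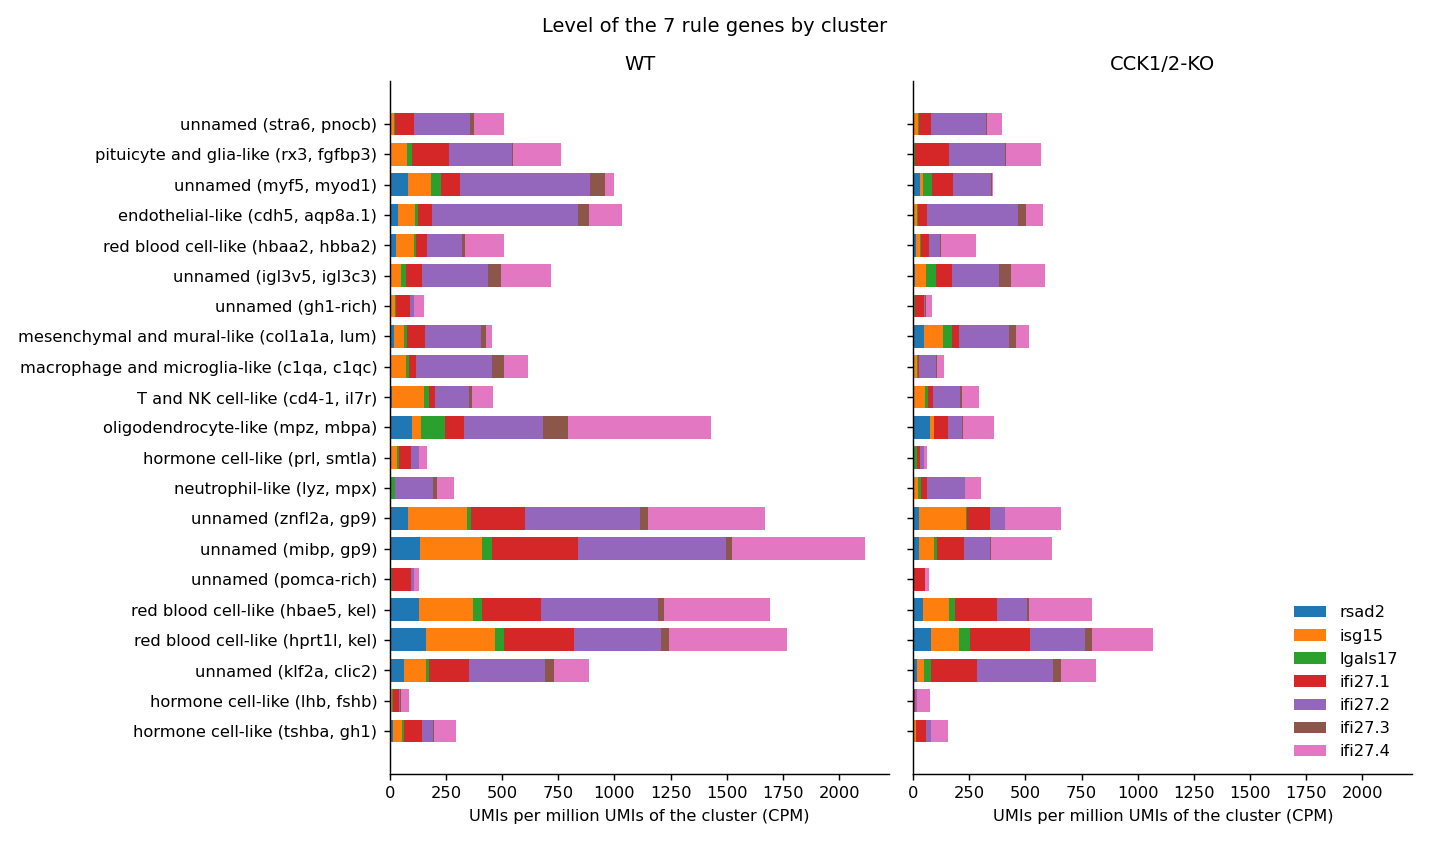
Level of the 7 rule genes (stacked, CPM over all barcodes of a cluster) in WT (left) and CCK1/2-KO (right), with the clusters in the order of the share of members. The *ifi27.2* segment is wider than the *ifi27.4* segment in endothelial-like, mesenchymal and mural-like and macrophage-like barcodes. The bars of hormone clusters are short (85.9 and 75.3 CPM in that of *lhb* and *fshb*).

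What else the members expressed was measured against the other barcodes of the same cluster and library. The UMIs expected from those barcodes were compared with the UMIs observed, for 10525 genes with enough UMIs in both libraries, the rule genes excluded. Since the rule split the same barcodes, these ratios are a description. At least 2-fold more UMIs than expected were observed for 102 genes in WT (0.969%) and 208 in CCK1/2-KO (1.98%), and for 16 genes in both (0.152%). At least 2-fold fewer in both were observed for 20 genes (0.19%). The median log2 ratio over all genes was −0.00 and 0.02.

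Interferon-induced effectors were raised as a group by a modest factor. Of the 96 on the list, 74 were found in the files and 29 had enough UMIs, and 22 of these 29 (75.9%) were above expectation in both libraries, against 27.39% of all genes. Their median log2 ratio was 0.45 in WT and 0.67 in CCK1/2-KO, and the summed UMIs were 1.43 and 1.45 times those expected. At least 2-fold in both were *mxe*, a dynamin-like antiviral GTPase, with 58 UMIs against 12.2 expected in WT (4.76-fold) and 43 against 7.22 in CCK1/2-KO (5.95-fold), and *gbp3*, a guanylate-binding protein (2.16-fold and 2.01-fold). *rnf213a*, a large ubiquitin ligase, was at 1.71-fold and 1.69-fold. *uba1*, which activates ubiquitin in all cells, was at 1.00-fold and 1.15-fold, and *plscr3b* at 0.925-fold and 1.17-fold. *lgals9l1* was at 3.50-fold and 1.24-fold, with 254 of its 763 WT UMIs in 1 barcode and 95.3% of them in macrophage and microglia-like barcodes.

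Effectors below the limits of that comparison were described by the share of their UMIs that lay in members. Members held 37.6% of all WT UMIs and 30.8% of all CCK1/2-KO UMIs. Of 32 such effectors with at least 10 UMIs in each library, 22 had a larger share than this in both, 3 in neither and 7 in 1 library only. The 3 were *ifit12*, *ifi44a5* and *samhd1*. The same count was not made over all genes, and these shares were taken over all clusters together, so cell type make-up can enter them. The genes named next were chosen after their values were seen. Of the *ifit8* UMIs, members held 38 of 40 in WT and 13 of 15 in CCK1/2-KO, and of *ifit10* 21 of 22 and 39 of 43. IFIT proteins bind viral RNA. *mxa* had 45 of 55 and 20 of 26 UMIs in members, spread over 26 and 10 of them. For CMPK2, which makes nucleotide triphosphates and whose gene neighbours *rsad2* in GRCz12tu, 14 of 18 and 19 of 24 UMIs were in members. *mxb* had 46 of 60 in WT and 71 of 76 in CCK1/2-KO, where 59 came from 1 barcode. *usp18*, which removes ISG15 from proteins, had 81 of 129 and 18 of 46 (39.1%, 25.1 to 54.6%), the latter with an interval that held the 30.8% of all UMIs.

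**Figure D4:**
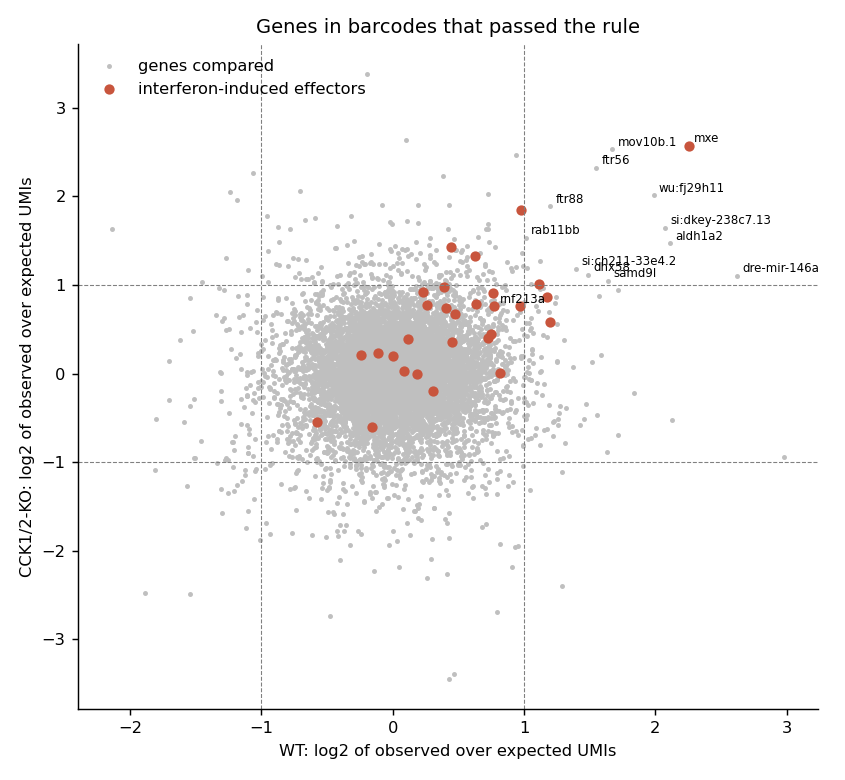
Log2 of observed over expected UMIs of members in WT (x axis) and CCK1/2-KO (y axis), with 1 point per gene for 10525 genes and the 29 interferon-induced effectors in red. Dashed lines mark 2-fold. The effectors lie mostly in the upper right, with *mxe* at 2.25 and 2.57, while the median of all genes is at −0.00 and 0.02.

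Ligands and receptors come before these genes in the pathway. Over the 12 genes found of this list, summed UMIs were 0.866 and 0.919 times those expected, and 0 of 4 genes with enough UMIs reached 2-fold in both, beside 0.152% of all genes. *il10rb*, a receptor chain shared by several cytokines, was at 1.11-fold and 1.04-fold, and *ifngr1*, a chain of the receptor for interferon gamma, at 1.18-fold and 1.06-fold. *crfb1* was at 0.870-fold and 0.924-fold. Of the ligands, *ifnphi3* was at 0.784-fold and 0.590-fold, and 84.9% of its 966 WT UMIs and 92.2% of its 849 CCK1/2-KO UMIs came from the *gh1*-rich cluster. In GRCz12tu *ifnphi3* lies near *gh1*, with *rdm1* and *arhgap27l* between them, and the part of this nearness in its count was not tested. In the *gh1*-rich cluster *gh1* was at 313772 CPM in WT and 151823 in CCK1/2-KO, and *ifnphi3* at 270 and 298. *ifng1*, interferon gamma, had 15 of its 235 WT UMIs and 1 of its 44 CCK1/2-KO UMIs in members, and was named after its values were seen.

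The signalling genes between receptor and nucleus were near expectation as a list, with *stat2* among the genes above it. Summed UMIs of the kinases and transcription factors were 1.14 and 1.16 times those expected. *stat2* was at 1.58-fold (1149 UMIs) and 2.07-fold (744), and *jak1* at 1.06-fold and 1.12-fold. In members with at least 1 of *rsad2*, *isg15* and *lgals17*, *stat1b* was at 4.50-fold and 4.64-fold. In members with *ifi27* genes alone it was at 2.26-fold and 0.770-fold, and it was named after its values were seen. *stat3*, which serves other cytokines, was at 0.915-fold and 1.095-fold. Among the sensors and adaptors, *dhx58*, which encodes the RNA sensor LGP2, was at 2.80-fold and 2.16-fold and was the only 1 of 7 past 2-fold in both. The adaptors *myd88*, *traf6*, *traf3* and *tbk1* ranged from 0.661-fold to 0.888-fold in WT and from 0.900-fold to 1.31-fold in CCK1/2-KO.

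Of the genes with enough UMIs, 0 of 5 feedback inhibitors, 0 of 3 chemokines, 0 of 18 MHC class I and 0 of 7 MHC class II genes were past 2-fold in both libraries, beside 0.152% of all genes. The inhibitor *socs3a* was at 1.13-fold and 0.893-fold, *socs3b* at 1.32-fold and 1.24-fold, *ptpn6* at 0.885-fold and 1.05-fold and *socs1a* at 1.08-fold and 0.311-fold. Of the chemokines, which draw leukocytes, *cxcl18b* was at 1.31-fold and 1.12-fold and *cxcl8a* at 1.91-fold and 1.78-fold. For *cxcl8a*, 225 of 558 WT UMIs came from 1 barcode, and without it the value was 1.16-fold. Both genes had their largest share of UMIs in pituicyte and glia-like members. *ccl35.1* was at 0.468-fold and 1.25-fold, the latter with 731 of 1629 UMIs in 1 barcode and at 0.762-fold without it, and *ccl19a.1* at 1.08-fold and 0.675-fold. For MHC class I the summed UMIs were 1.17 and 1.12 times those expected, with 17 and 15 of 18 genes above expectation. Of all 10525 genes compared, 5259 and 5483 were above it. *b2m*, the shared light chain, was at 1.22-fold and 1.18-fold. *b2ml* was at 1.12-fold and 1.07-fold, *mhc1zba* at 1.103-fold and 1.31-fold and *mhc1uba* at 1.06-fold and 0.701-fold. MHC class II, with *cd74a* at 0.797-fold and 1.02-fold, had 0.914 and 1.08 times the expected sum.

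Outside the lists, the genes highest in both libraries included further genes of antiviral families. *mov10b.1*, a relative of the RNA helicase MOV10, was at 3.19-fold and 5.79-fold, and *samd9l* at 3.11-fold and 2.06-fold. The finTRIM ubiquitin ligase genes *ftr56* and *ftr88* were at 2.93-fold and 5.01-fold and at 2.30-fold and 3.70-fold. wu:fj29h11 was at 3.96-fold and 4.04-fold, and si:dkey-238c7.13, with 14315 and 14067 UMIs by far the most abundant of them, at 4.21-fold and 3.13-fold. No role is given here for either. *aldh1a2*, which makes retinoic acid, was at 4.32-fold and 2.77-fold in 47 and 23 members. In WT 46.0% of its UMIs were in mesenchymal and mural-like barcodes. The locus of dre-mir-146a, a microRNA known from mammals to damp innate signalling, had 25 UMIs against 4.07 expected and 22 against 10.2. Next came ENSDARG00000097340, *sh3bp1*, MRC2, *rab11bb* and *rab4a*, all between 2.02-fold and 2.89-fold, and *POSTN* and *gig2d*, between 1.98-fold and 2.57-fold.

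The genes furthest below expectation were of mixed function and had few UMIs. *col9a2*, a collagen chain, had 67 UMIs against 195 expected in WT (0.343-fold) and 34 against 191 in CCK1/2-KO (0.178-fold), the largest part of them in the cluster of *stra6*. LMOD1 (ENSDARG00000056111), an actin nucleator of smooth muscle, was at 0.270-fold and 0.180-fold, *lamb2l*, a laminin chain, at 0.404-fold and 0.406-fold, *iqce* at 0.407-fold and 0.337-fold, and *arhgap36* at 0.338-fold and 0.413-fold. As a measure of stress during dissociation, immediate early and heat shock genes were 1.11 and 1.04 times the expected sum.

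Markers of cell types, compared in the same way, showed what the members carried within their own clusters. In WT the sums lay between 0.591 times (T and NK cell markers) and 1.22 times (macrophage markers) those expected. In CCK1/2-KO they lay between 0.633 times (B cell markers) and 2.07 times (neutrophil markers). Of the 5612 neutrophil marker UMIs in CCK1/2-KO members, 2287 were *lyz* UMIs of 1 barcode. Endothelial markers were at 1.55 times in CCK1/2-KO and 1.01 in WT. All 14 endothelial markers with enough UMIs were above expectation in CCK1/2-KO and 9 of them in WT. Of all 10525 genes compared, 5483 and 5259 were above it. Among the 14 were *kdrl*, a receptor for VEGF, at 1.42-fold and 1.01-fold and *cdh5* at 1.37-fold and 1.11-fold. Mesenchymal markers were at 1.85 times in CCK1/2-KO and 1.08 in WT, but of 6 with enough UMIs 0 were above expectation in CCK1/2-KO and 5 in WT. In CCK1/2-KO, 1 barcode held 5363 of the 6772 UMIs of the collagen gene *col1a2*, which was at 3.098-fold with it and 0.726-fold without it. In WT *gh1* (growth hormone) was at 1.09-fold and the globin gene *hbaa1* at 0.998-fold. In CCK1/2-KO these were at 1.05-fold and 1.01-fold, whereas *pomca*, which encodes the precursor of ACTH, was at 0.308-fold against 1.42-fold in WT. Of the 10115 *pomca* UMIs in CCK1/2-KO members, 2548 came from 1 barcode, and without it the value was 0.249-fold. The *pomca*-rich cluster had only 8 CCK1/2-KO members, at a median of 23560.5 UMIs against 2649.5 in its other barcodes. Other cell types within a cluster, or their free RNA, were not tested as a part of these values.

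The summed level of the effectors was higher in barcodes with more rule genes, while single genes did not all follow. Measured against barcodes of the same cluster with 0 rule genes, effectors were at 1.04-fold in WT barcodes with 1 rule gene, 1.26-fold with 2, 1.43-fold with 3, 1.54-fold with 4 and 2.31-fold with 5 to 7. In CCK1/2-KO the steps were 1.09, 1.197, 1.47, 1.48 and 2.75-fold, the last being 2.17-fold without the barcode of 559 rule-gene UMIs. *stat2* went from 1.33-fold with 1 rule gene to 3.22-fold with 5 to 7 in WT and from 1.13-fold to 5.48-fold in CCK1/2-KO, with a lower value at 4 rule genes than at 3 in both. *ifi27.6*, a neighbour of the rule genes that the rule did not use, went from 1.30-fold to 5.14-fold in WT. In CCK1/2-KO it stood at 1.45, 2.202, 1.44, 3.02 and 2.82-fold. *ifi27.6* was also not left out of the clustering that set the comparison barcodes. The parts of this and of read assignment among the *ifi27* genes in these values were not tested. *b2m* was at 0.936, 1.2001, 1.17, 1.45 and 1.35-fold in WT and at 0.968, 0.997, 1.46, 0.954 and 1.64-fold in CCK1/2-KO. *gbp1*, named after its values were seen, was at 3.03-fold with 4 rule genes and 0.932-fold with 5 to 7 in WT, and at 1.21-fold and 8.28-fold in CCK1/2-KO (4.73-fold without the barcode of 559). Immediate early and heat shock genes were at 1.17-fold in WT and 1.55-fold in CCK1/2-KO with 5 to 7 rule genes, the latter 1.63-fold without the barcode of 559 rule-gene UMIs, and at 0.939-fold and 0.915-fold with 1. Their part in the level of the effectors was not tested. Depth moved with the number of rule genes, with medians of 995.5 UMIs for 1 rule gene, 3151 for 2 and 6288.5 for 3 in WT, and its part in these values was not tested.

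**Figure D5:**
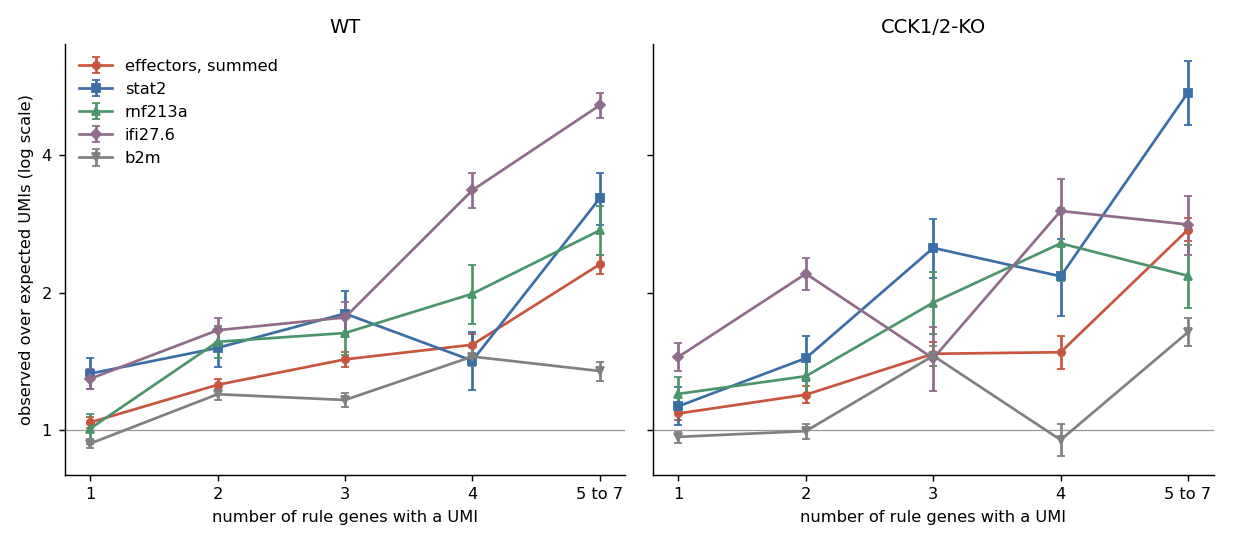
Observed over expected UMIs (log scale, bars are exact 95% Poisson intervals) by the number of rule genes in a barcode, against barcodes with 0 rule genes of the same cluster, in WT (left) and CCK1/2-KO (right). The summed effectors go from 1.04 to 2.31 in WT and from 1.09 to 2.75 in CCK1/2-KO, and *b2m* stays between 0.936 and 1.64.

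Members that passed on *ifi27* genes alone carried less of the summed effector signal, while other genes did not all follow. Effectors in the members with *ifi27* genes alone were at 1.22-fold in WT and 1.24-fold in CCK1/2-KO. In members with at least 1 of *rsad2*, *isg15* and *lgals17* they were at 1.66-fold and 1.76-fold. For *mxe* the values were 1.89-fold and 3.22-fold, from 10 and 12 UMIs, against 6.97-fold and 8.86-fold.

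Between the libraries, the members differed by list and by gene. Effectors summed to 1133 CPM in WT members and 1032 in CCK1/2-KO members, a log2 ratio of −0.13 (−0.18 to −0.08), which was −0.23 without the barcode of 559 rule-gene UMIs. Single effectors went both ways, from −3.62 for *lgals9l1* and −2.58 for *mxc* to 1.41 for *mxb* and 2.03 for *ifit14*. These 4 were named after their values were seen. The barcode of 559 rule-gene UMIs held 59 of the 71 *mxb* and 10 of the 26 *ifit14* UMIs of CCK1/2-KO members. In WT members 1 barcode held 254 of the 763 *lgals9l1* UMIs, and 1 held 50 of the 217 *mxc* UMIs. Ratios of these genes without such barcodes were not taken, so their directions can rest on 1 barcode. The log2 ratio was 0.11 for chemokines, 0.15 for ligands and receptors and −0.15 for MHC class II. For the kinases and transcription factors the log2 ratio was 0.28 and for the sensors and adaptors 0.37. The feedback inhibitors summed higher in CCK1/2-KO (0.87), with *socs3a* holding 8358 of 10020 WT and 9259 of 10592 CCK1/2-KO UMIs. *socs3a* was at 999 and 1908 CPM. Others went both ways, with *socs3b* at 0.80, *ptpn6* at −0.20 and *socs1a* at −0.67. Immediate early and heat shock genes were also higher in CCK1/2-KO (0.86). MHC class I was lower (−0.38), with *mhc1uba* at 669 and 189 CPM but *b2ml* at 1086 and 1103. Its single genes ranged widely, from −4.63 for *psmb12* (128 and 3 UMIs) and −4.39 for *tap2a* (181 and 5 UMIs) to 0.89 for *mhc1zaa*. *psmb9a* was at −3.45, *psmb8a* at −3.28 and *tapbp.2* at −3.09, while *mhc1zba* was at −0.06. Except for *mhc1zba*, the genes with a log2 ratio given here were named after their values were seen. *gbp1* was at 53.7 and 20.4 CPM. These sums were taken over all clusters together, so cell type make-up can enter them, and its part was not tested. With 1 library per genotype, genotype and library cannot be told apart in them.

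The barcodes with most rule-gene UMIs came from several cell types. The CCK1/2-KO barcode with 559 lay in an unnamed cluster with the neuronal genes *nefmb* and *phox2a* among its leading genes, and also held 59 *mxb*, 53 *stat2*, 27 *ifit10* and 99 *b2m* UMIs. A CCK1/2-KO mesenchymal and mural-like barcode followed with 202 rule-gene UMIs among 13529, 57 of them *rsad2* and 55 *isg15*. A WT barcode of the same cluster had 196 among 11228, 137 of them *ifi27.2*. Next came a WT macrophage and microglia-like barcode with 187 among 30548 and a WT endothelial-like barcode with 139 among 7810. Of the 104 WT barcodes with 5 to 7 rule genes, 42 were in unnamed clusters, 35 were red blood cell-like, 7 endothelial-like, 5 pituicyte and glia-like, 4 macrophage and microglia-like and 2 hormone cell-like. Of the 31 in CCK1/2-KO, 14 were in unnamed clusters, 1 of them the *gh1*-rich one, 8 were red blood cell-like, 6 mesenchymal and mural-like, 2 endothelial-like and 0 hormone cell-like.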

How the data were processed

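The authors aligned and counted the reads with Cell Ranger on GRCz11 per the submitters' processing notes, and deposited UMI counts per gene and barcode as 1 matrix per library, without normalization. Both matrices started at 500 UMIs per barcode. The filter removed 154 WT and 192 CCK1/2-KO barcodes for under 200 genes, and 12 and 4 for over 20% mitochondrial UMIs. The members and the gene lists were chosen with earlier results of these data known.

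Counts were scaled to 10000 UMIs per barcode and log-transformed, and clustered by the Leiden method (scanpy 1.11.5, igraph 0.11.9; 2000 variable genes with library as batch, values clipped at 10, 30 principal components, 20 neighbours, resolution 1), without 217 genes of the interferon, antigen, hormone and mitochondrial lists. A marker counted as detected in 10% or more of a cluster's barcodes at 2-fold or more over the others, and a name needed 3 of them and, among the 10 leading genes, at least 1 marker from its list and more than from any other. A cluster led by *acp5a* and *ctsk* stayed unnamed because its leading genes went against its name. The automatic Scrublet threshold marked 0 barcodes, so doublets were kept. At an expected rate of 0.8% per 1000 barcodes, 34 WT and 14 CCK1/2-KO members would be removed. Of 470 list entries, 65 were not found in the files or by the RefSeq-based name table.

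Expected UMIs of a gene were its rate in the other barcodes of the same cluster and library times the members' UMIs. Genes needed at least 20 UMIs, observed or expected, in each library and at most 20% of the UMIs of members in 1 barcode. Named genes were the rule genes, the 4 with most UMIs of each list, those at least 2-fold in both libraries, and the 15 highest and 5 lowest outside the lists. Some genes that this rule names are not reported here. Genes outside this rule are said to have been chosen after their values were seen. With 1 library per genotype no p-value is given. Intervals at 95% (Clopper-Pearson, Poisson, conditional for ratios) cover counting error only. The computation was tested on counts simulated per cluster and library, without spread between single barcodes, so that test does not cover such spread. Figures were drawn with matplotlib 3.10.9. Tables were handled in pandas 2.3.3 under Python 3.11.15, intervals came from scipy 1.17.1, and scikit-learn 1.9.0, numpy 2.4.6 and anndata 0.12.19 were loaded by these steps.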

Additional observations from a re-analysis of the deposited data

Results flagged for a closer look

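Observed over expected UMIs of members lay on opposite sides of 1 in WT and CCK1/2-KO for 8 gene lists. With 1 library per genotype these differences were not tested. Feedback inhibitors, of which *socs3a* held most UMIs, were at 1.14 in WT and 0.911 in CCK1/2-KO. MHC class II genes were at 0.914 and 1.08, and hormone genes at 1.06 and 0.873. Macrophage markers were at 1.22 and 0.917, neuronal markers at 1.19 and 0.845, and progenitor and cell cycle markers at 0.957 and 1.69. T and NK cell markers were at 0.591 and 1.19, and neutrophil markers at 0.709 and 2.07. Of the neutrophil markers, *lyz* had 2416 UMIs in 10 CCK1/2-KO members, 2287 of them in 1 barcode, and 32 in 19 WT members.

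Among the barcodes that failed the filter, which no comparison used, 3 of 166 in WT and 2 of 196 in CCK1/2-KO held 2 or more rule genes.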

How the results depend on the processing

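The share of members was higher in WT under all 19 settings compared, but its size depended on them. It was 9.07% in WT and 4.95% in CCK1/2-KO with at least 3 rule genes, 8.72% and 5.76% with at least 2 UMIs in each of 2 genes, 11.4% and 5.90% with *ifi27.1* to *ifi27.4* counted as 1 gene, 32.4% and 22.3% with at least 500 genes detected, and 7.46% and 3.47% or 8.54% and 5.32% after thinning to 500 or 1000 UMIs. Leaving out *isg15* gave 17.5% and 12.0%, *ifi27.1* 16.2% and 9.27%, *ifi27.2* 15.4% and 9.30%, and *ifi27.4* 13.3% and 7.78%. Asking for at least 1 of *rsad2*, *isg15* and *lgals17*, chosen after seeing the data, selects the same barcodes as counting the *ifi27* genes as 1 (11.4% and 5.90%). The 16 genes higher and 20 lower became 109 and 109 at 1.5-fold, 4 and 1 at 3-fold, 5 and 7 with at least 50 UMIs, 30 and 32 with at least 5 UMIs, and 4 and 0 of 2430 after thinning to 1000 UMIs. Higher genes were 231 without standardising by cluster and 43 against barcodes with 0 rule genes. Lower genes were 12 with at least 3 rule genes, and 3 with at least 1 of the 3 genes, also chosen after seeing the data. The log2 ratio of effectors, −0.13, was −0.069 with at least 3 rule genes and −0.23 without the CCK1/2-KO barcode of 559 rule-gene UMIs, chosen after seeing the data. Leaving out the barcode with most UMIs of *ccl35.1* or *col1a2* in CCK1/2-KO, or of *cxcl8a* in WT, chosen after seeing the data, gave 0.762, 0.726 and 1.16 times the expected UMIs. The highest cluster shares stayed within their intervals at Leiden resolutions of 0.5 and 2. Clusters of under 30 barcodes and genes under 20 UMIs are limited by depth. No paired analysis was possible because each group held 1 library.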
